A study of Homo sapiens with 24 samples.

Results

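The cytosolic ribosomal protein genes are the genes for the protein components of the 40S and 60S ribosomal subunits. They were picked by symbol (RPL or RPS with a number, plus RPLP0, RPLP1, RPLP2 and RPSA) and by a mean of at least 10 FPKM over all libraries. This rule uses no difference between groups, though the family was chosen with earlier results of these data known. Genes near the limit, such as RPL26 and RPL22, met it only through the groups where they were higher. Of 61251 genes in the table, 84 had such a symbol and 75 reached that level, 28 of the 40S and 47 of the 60S subunit. FPKM are reads scaled by the length of a gene and the total of its library. The cells were KYSE450, an established line of oesophageal squamous cell carcinoma, all of wild type genotype in the labels and grown in RPMI-1640 with serum. The 24 libraries of total RNA formed 4 groups of 6: parental cells, cells of a chemoresistant derivative (KYSE450DDP in the titles), and for each line a drug-tolerant persister group, named parental-DTP and chemoresistant-DTP in the phenotype labels. The labels enter no treatment for any group, DTP cells included, and give no drug, dose or time. Whether replicates were grown apart is not stated, and the p-values therefore cover only the spread among these libraries, which may be technical.

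Each ribosome holds a single copy of nearly every ribosomal protein, and the genes are typically transcribed at high levels. Their mRNAs typically begin with a C followed by an unbroken run of pyrimidines, the TOP motif, through which mTORC1 and the RNA-binding protein LARP1 adjust translation of the whole set. New ribosomes are put together in the nucleolus, where ribosomal proteins meet ribosomal RNA with the help of many assembly factors that stay behind. Bulk RNA sequencing reads the mRNA level and not translation. In bulk samples fewer cells of a kind and less RNA per cell cannot be told apart.

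The start of the gene is shown for the members that the results below turn on, since it is the sequence by which the family is known. Each stretch gives 15 bases before and 15 bases from the transcription start annotated in RefSeq (GRCh38.p14), read on the gene's strand. Capitals mark a run of at least 5 pyrimidines that begins with C exactly at the start.
RPS25 (chr11:119018329-119018358, minus strand): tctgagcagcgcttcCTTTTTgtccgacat
RPS3 (chr11:75399503-75399532, plus strand): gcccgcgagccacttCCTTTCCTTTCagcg
RPS6 (chr9:19380222-19380251, minus strand): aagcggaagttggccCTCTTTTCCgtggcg
RPLP1 (chr15:69452803-69452832, plus strand): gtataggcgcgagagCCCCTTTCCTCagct
RPL22 (chr1:6199581-6199610, minus strand): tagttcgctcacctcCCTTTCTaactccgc
RPL24 (chr3:101686704-101686733, minus strand): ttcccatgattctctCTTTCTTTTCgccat
RPL26 (chr17:8383179-8383208, minus strand): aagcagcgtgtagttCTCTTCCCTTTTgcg
RPS26 (chr12:56041903-56041932, plus strand): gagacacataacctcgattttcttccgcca
RPL7L1 (chr6:42879601-42879630, plus strand): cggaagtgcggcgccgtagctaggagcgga
RPL26L1, the upstream of its annotated starts (chr5:172958714-172958743, plus strand): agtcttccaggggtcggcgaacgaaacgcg
RPL26L1, the downstream start (chr5:172958865-172958894, plus strand): ggcggggcggcggccacaaacccgcaggca

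Of the 61 members with a RefSeq entry, 44 (72.1%) had such a run at an annotated start, against 1404 of 27305 genes (5.14%) and 6 of 69 mitochondrial ribosomal protein genes (8.70%). Within 5 bases of the start, 51 members (83.6%) and 25.2% of all genes had one. The search read the gene's own strand only, and a run is a description of these letters, not of how the mRNA was translated. RPS26, RPL7L1 and RPL26L1 were among the 17 members with an entry and no run at the start. Those 3 recur below because they moved apart from most of the family.

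Levels differed widely between members. RPS2, a 40S protein near the mRNA entry, had the highest mean at 2606 FPKM over the 24 libraries. RPL8, a 60S protein near the peptidyl transferase centre, followed at 1523 FPKM, then RPS12 at 1292 FPKM and RPL41, the shortest protein of the 60S subunit, at 1217 FPKM. RPL26 at 10.4 FPKM lay just inside the limit, and RPL22L1 at 7.42 FPKM just outside. The order of members partly follows the annotation, because FPKM divide by the summed length of all annotated exons. That length ran from 639 bases for RPS12 to 9840 bases for RPS29, an mRNA that is itself short. The 9 genes below the limit included RPL22L1, RPS15A, RPL17, RPS27L, RPL36A, RPS10, RPL3L and RPL10L. RPS10 shared 39.4% of its exon bases with a read-through gene on the same strand, RPL17 shared 32.7%, and RPL10L was listed at 0. Most members also have pseudogenes named after them, with 30 for RPS26 alone, and how reads that fit several copies were counted is not given in the sources used here. Comparisons of 1 gene between groups are free of the length. The comparisons that follow are of this kind, apart from sums of FPKM over several genes, in which the annotated lengths still weigh.

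Library totals ran from 14947379 to 37989457 reads, and no member had fewer than 369 reads in any library. All 9 squamous markers looked at were expressed, while the summed level of fibroblast markers was at most 19.2 FPKM in any library and those of leukocytes, endothelium and red cells summed to at most 2.63, 1.22 and 1.34 FPKM. Library 2 of the chemoresistant-DTP group stood apart. Its members lay at a median of 0.43 (log2) above the group means, and its deviations over all genes fell with gene length (Spearman's rho -0.46 across genes). Libraries of 1 group also differed by GC content, with rho between -0.64 and 0.66. Counts of calls are given without single libraries too, but values of single members only in some cases. Other values of single members include these libraries.

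Together the 75 members made up 7.11% ± 0.372 (SD, n = 6) of the summed FPKM in parental cells and 7.31% ± 0.531 in parental-DTP cells. The share was 8.54% ± 0.398 in chemoresistant cells and 8.50% ± 1.11 in chemoresistant-DTP cells (n = 6 each). The lowest, median and highest libraries were 6.74%, 7.08% and 7.65% in parental, 6.92%, 7.09% and 8.34% in parental-DTP, 8.08%, 8.56% and 9.13% in chemoresistant, and 7.84%, 8.04% and 10.7% in chemoresistant-DTP cells. The share was thus higher in the chemoresistant line, without overlap before the DTP state. In the DTP state the groups overlapped by summed FPKM only through library 6 of the parental-DTP group. The next highest parental-DTP library held 7.38%, below every chemoresistant-DTP library. By share of reads library 4 of the parental-DTP group (6.584%) also lay just above library 3 of the chemoresistant-DTP group (6.577%). Library 6 of the parental-DTP group and library 2 of the chemoresistant-DTP group were the highest of their groups.

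**Figure D1:**
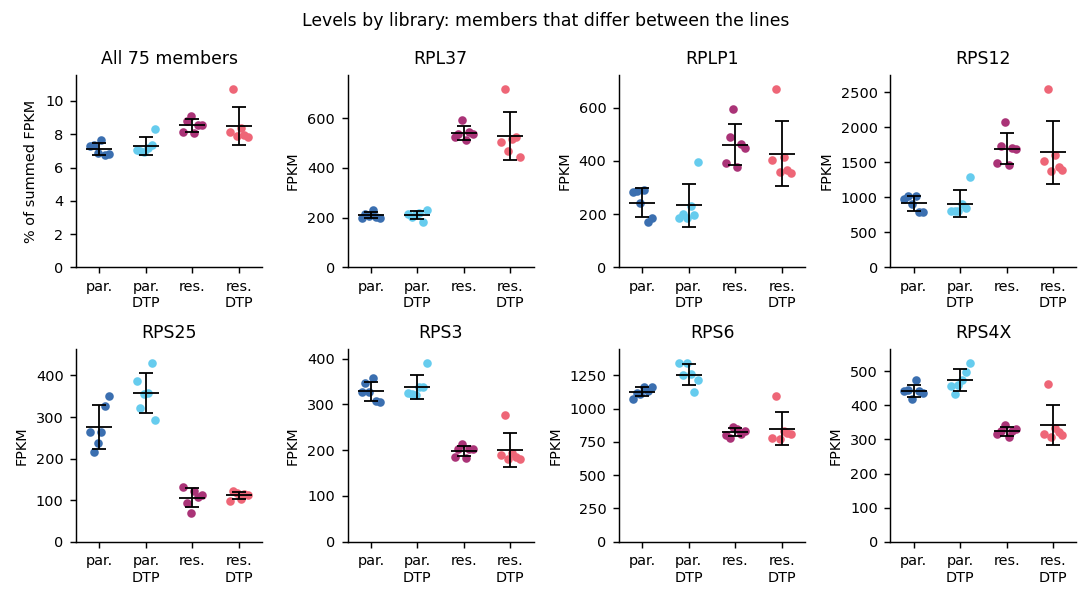
Levels by library in parental (par.), parental-DTP, chemoresistant (res.) and chemoresistant-DTP cells: the share of all 75 members in the summed FPKM (percent) and the FPKM of 7 members. Points are libraries, bars the mean ± SD (n = 6), axes start at 0. RPL37 runs from 198 to 232 FPKM in parental and from 514 to 592 in chemoresistant cells, while RPS25 goes the other way.

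The first question was how far the family differs between the chemoresistant and the parental line. Outside the DTP state 41 members were higher and 11 lower in chemoresistant cells (limma, Benjamini-Hochberg adjusted p under 0.05), that is 52 of 75, while 77.5% of the 13729 genes tested passed in either direction, 48.2% higher and 29.4% lower. The median log2 fold change was 0.26 over the members and 0.14 over all genes tested, and 80% of the members lay between -0.39 and 0.76. The libraries of the groups did not overlap for 49 members, and for 61.8% of all genes. Dividing by relative log expression factors, which moved the median of all genes from 0.14 to 0.00, left 28 members higher and 16 lower with a median of 0.07. The calls were then compared over 9 settings: the deposited values, relative log expression, TMM and member-free library totals as scalings, voom on recovered reads, the correction for GC content and length, and the deposited, rescaled and corrected values without library 2 of the chemoresistant-DTP group. The same 27 members were higher and the same 11 lower in all 9. How many of all tested genes kept their calls in all 9 settings was not counted, for this or any other comparison. Whether such stability is particular to the family is therefore not known.

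The P stalk, which recruits elongation factors to the 60S subunit, was higher with all 3 of its proteins. RPLP1 ran from 171 to 291 FPKM in parental cells with a median of 263, and from 378 to 594 with a median of 457 in chemoresistant cells. Its log2 fold change was 0.94 ± 0.184 (SE; limma, adjusted p = 6.5e-05). RPLP2, its partner, rose by 0.75 ± 0.120 from a median of 425 to 723 FPKM. RPLP0, the base of the stalk, went from a median of 507 to 673 FPKM, 0.38 ± 0.0807 with adjusted p = 0.00015 by limma. No library of the lines overlapped for these proteins. The call for RPLP0 ended under relative log expression scaling, at 0.20 with adjusted p = 0.065.

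RPL37, a zinc-binding 60S protein, had the largest increase of the members. Its libraries held 198, 206 and 232 FPKM (lowest, median, highest) in parental and 514, 535 and 592 FPKM in chemoresistant cells. The log2 fold change was 1.36 ± 0.0813 (SE), with adjusted p = 1.4e-13 by limma. Several 40S proteins followed. RPS28, at the mRNA exit channel, rose by 0.91 ± 0.157 from a median of 96.5 to 175 FPKM, and RPS12 by 0.88 ± 0.136 from 942 to 1700. Groups did not overlap for either. RPS28 shared 21.4% of its exon bases with genes on the opposite strand, and whether the libraries keep strand is not given in the sources used here. RPL39 and its paralog RPL39L, which line the end of the peptide exit tunnel, were also higher, at 0.75 and 0.77. RPL39L had medians of 40.9 and 68.2 FPKM. RPS19, the gene most often mutated in Diamond-Blackfan anaemia, a disorder of red cell production, was higher by 0.60 (medians of 84.5 and 130 FPKM). RPS27A, made as a fusion with ubiquitin, was higher by 0.46, a call lost with relative log expression factors (0.28, adjusted p = 0.054).

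The members that were lower included well known regulatory ones. RPS25, a 40S head protein that some viral and cellular mRNAs need for internal initiation, held 216, 263 and 350 FPKM (lowest, median, highest) in parental and 69.1, 110 and 131 FPKM in chemoresistant cells. Its log2 fold change was -1.38 ± 0.130 with adjusted p = 8.0e-10 by limma, and the groups were far from touching. RPS25 shared 20.8% of its exon bases with genes on the opposite strand, and whether the libraries keep strand is not given in the sources used here. RPS3, at the mRNA entry, went from 305, 327 and 358 FPKM to 184, 202 and 214 FPKM, a change of -0.73 ± 0.0801. RPS6, the substrate of the S6 kinases below mTORC1, fell by 0.45 on the log2 scale, from a median of 1124 to 818 FPKM (adjusted p = 1.2e-06). RPS4X, the X-linked copy of a 40S core protein, fell by the same 0.45 with medians of 442 and 325 FPKM. None of these overlapped between the lines.

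RPS26, which sits at the mRNA exit and contacts bases upstream of the start codon, was the other 40S protein among the 11. It held 138, 147 and 167 FPKM in parental and 81.4, 89.0 and 91.3 FPKM in chemoresistant cells, a change of -0.77 ± 0.0775 (limma, adjusted p = 2.5e-09). On the 60S side RPL26 fell by 0.58, RPL24 by 0.48, RPL7L1 by 0.42, RPL21 by 0.36, RPL35 by 0.30 and RPL6 by 0.29. RPL24 and RPL26 held medians of 257 and 12.1 FPKM in parental and 186 and 7.60 FPKM in chemoresistant cells. RPL26 met the limit of the family only through the groups where it was higher. RPL5 and RPL11, which with 5S ribosomal RNA bind MDM2 and thereby stabilise p53, did not pass the test. Their log2 fold changes were 0.05 ± 0.0668 and 0.06 ± 0.0746. With relative log expression factors and library 2 of the chemoresistant-DTP group left out, both turned and passed, RPL5 at -0.13 (adjusted p = 0.0065) and RPL11 at -0.13 (adjusted p = 0.015).

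**Figure D2:**
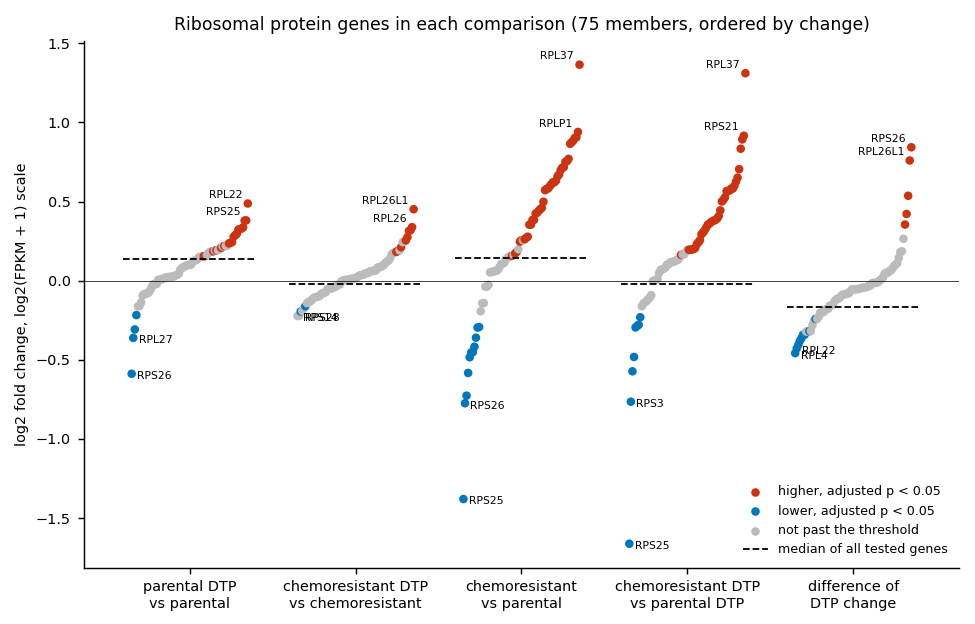
Log2 fold change, on the log2(FPKM + 1) scale, of each of the 75 members in the 5 comparisons, ordered by value, with calls at an adjusted p under 0.05 in colour. The dashed lines give the median of all tested genes. Differences between the lines spread from -1.66 to 1.36, those between DTP and other cells of 1 line from -0.59 to 0.49.

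The lines were also compared in the DTP state. Here 38 members were higher and 8 lower in chemoresistant-DTP than in parental-DTP cells (limma, adjusted p under 0.05), 46 of 75, against 61.9% of all genes in either direction, 29.5% higher and 32.3% lower. The medians were 0.19 over the members and -0.02 over all genes. Groups did not overlap for 14 members and for 36.2% of all genes. Relative log expression scaling gave 37 and 7 with a median of 0.22, and leaving out library 2 of the chemoresistant-DTP group gave a median of 0.12. In this pair of groups 32 members were higher and 7 lower in all 9 settings. The group means share no library with the comparison before the DTP state, but both tests use the estimate of spread from all 24 libraries.

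RPS25 again had the lowest value. Parental-DTP libraries held 293, 356 and 430 FPKM and chemoresistant-DTP libraries 98.7, 114 and 122 FPKM, a difference of -1.66 ± 0.130 (limma, adjusted p = 6.4e-11). RPS3 was lower by -0.76 ± 0.0801, RPS6 by -0.57 ± 0.0658 and RPS4X by -0.48 ± 0.0730. RPS4X overlapped between the groups through library 2 of the chemoresistant-DTP group, and RPS25, RPS3 and RPS6 did not overlap. RPSA, the laminin receptor precursor that is also a 40S protein, was lower by -0.28 (medians of 398 and 310 FPKM, adjusted p = 0.00020).

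At the other end RPL37 held 182, 215 and 229 FPKM in parental-DTP and 444, 512 and 718 FPKM in chemoresistant-DTP cells, a difference of 1.31 ± 0.0813. RPS21, a 40S protein, was higher by 0.92 ± 0.192 and RPLP1 by 0.89 ± 0.184. RPS21 and RPLP1 overlapped between the groups, because library 6 of the parental-DTP group reached 638 and 397 FPKM. All 3 P stalk proteins were again higher, RPLP2 by 0.65 and RPLP0 by 0.21. The call for RPLP0 (adjusted p = 0.030) ended without library 2 of the chemoresistant-DTP group, at 0.13 and adjusted p = 0.089. RPL26L1 was higher by 0.57 ± 0.0985 with no overlap.

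Some, not all, of the members that differed most between the lines lie among genes that differed in the same direction. Coordinates were taken from GENCODE 29 (GRCh38), and other tested genes starting within 5 Mb of a member were counted as its neighbours. Before the DTP state 5 members had a neighbours' median more than 0.3 from that of all tested genes, and in it 7. RPLP1, RPS28 and RPS12, which also rose strongly, were not among the 5. Over all tested genes 48.2% were higher and 29.4% lower in chemoresistant than in parental cells. Around RPL37 (chr5:40825262-40835335) 36 of 40 neighbours were higher in chemoresistant than in parental cells and 1 was lower, with a median of 1.04. Around RPS25 (chr11:119015712-119018691) 44 of 57 were lower and 11 higher, with a median of -0.87. Around RPS3 (chr11:75399486-75422280) 48 of 70 were lower and 12 higher, with a median of -0.43. RPS27, a zinc finger 40S protein on chromosome 1 that was higher by 0.71, had 172 neighbours of which 130 were higher, with a median of 0.53.

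In the DTP state the same neighbourhoods had medians of 0.70 for RPL37, -1.03 for RPS25, -0.71 for RPS3 and 0.29 for RPS27. That of RPS4X on chromosome X was -0.51, with 21 of 31 neighbours lower, against 32.3% of all tested genes. Across the 75 members the log2 fold change and the median of the neighbours correlated at Pearson's r 0.62 and Spearman's rho 0.41 before the DTP state, and at 0.77 and 0.57 in it. Without RPS25 and RPL37 the values were 0.44 and 0.36, then 0.60 and 0.54. These points share libraries and members on 1 chromosome share neighbours, so the values are descriptions only. RPS26 at -0.77, RPL26L1 at -0.19 and RPL7L1 at -0.42 had neighbours with medians of 0.17, 0.11 and 0.12 before the DTP state. RPL26L1 did not pass there on the deposited values, and did with relative log expression factors (-0.37, adjusted p = 0.0067) and with the GC and length correction (-0.46, adjusted p = 0.00016). These neighbourhoods were singled out after their values were seen, and DNA copy number was not measured here.

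**Figure D3:**
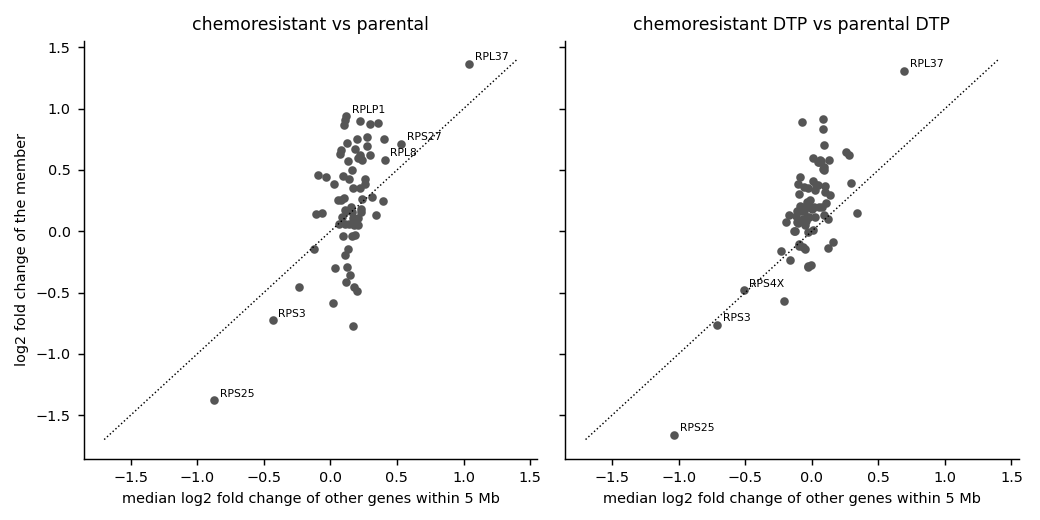
Log2 fold change of each of the 75 members (vertical) against the median log2 fold change of other tested genes within 5 Mb (horizontal), for the lines before the DTP state (left) and in it (right). The dotted line marks equal values. RPL37 lies at 1.04 and 1.36 on the left, RPS25 at -0.87 and -1.38.

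The next question was what the DTP state of parental cells does to the family. Of the 75 members 19 were higher and 4 lower in parental-DTP than in parental cells (limma, adjusted p under 0.05), or 23 in all, against 65.5% of all genes, 45.8% higher and 19.7% lower. The medians were 0.10 for the members and 0.14 for all genes. Groups did not overlap for 6 members, RPS26, RPL5, RPSA, RPL13A, RPL4 and RPL10A, and for 45.8% of all genes. The direction of the 19 rested on the scaling. With relative log expression factors, which set the median of all genes to 0.00, the members had a median of -0.09 with 1 higher and 10 lower. Without libraries 5 and 6 of the parental-DTP group 9 were higher and 3 lower, and without library 2 of the chemoresistant-DTP group, which enters through the shared estimate of spread, 33 were higher and 5 lower.

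Just 4 calls held in all 9 settings compared: RPL22 higher, and RPS26, RPL26L1 and RPL7L1 lower. RPL22, a 60S protein that also binds RNA outside the ribosome, held 6.60, 7.71 and 10.2 FPKM in parental and 9.94, 11.4 and 15.3 FPKM in parental-DTP cells (0.49 ± 0.107, limma, adjusted p = 0.00035). The groups met at the edge, where the highest parental library exceeded the lowest parental-DTP library. With a parental median under 10 FPKM, RPL22 met the limit of the family only through other groups. RPS26 fell from 138, 147 and 167 FPKM to 97.8, 99.2 and 104 FPKM, -0.59 ± 0.0775 with adjusted p = 4.6e-07 and no overlap.

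RPL26L1, a near copy of RPL26 encoded by a gene of its own, held 59.7, 72.7 and 80.3 FPKM in parental and 51.2, 55.2 and 67.8 FPKM in parental-DTP cells (-0.31 ± 0.0985, adjusted p = 0.0086 by limma). RPL7L1, a paralog of RPL7 found in the nucleolus, held 24.7, 25.8 and 26.9 FPKM and then 20.5, 21.7 and 24.9 FPKM (-0.22 ± 0.0544, adjusted p = 0.0012). Both overlapped through the highest parental-DTP library. Of the parent genes RPL26 had -0.08 ± 0.0779, which did not pass on the deposited values, but with relative log expression factors it was lower by -0.26 (adjusted p = 0.0091) and with the GC and length correction by -0.27 (adjusted p = 0.00078). RPL7 was higher by 0.32, a call lost with relative log expression factors (0.14, adjusted p = 0.26).

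Other named members lost their calls under that scaling. RPS25 and RPS27 were both higher by 0.38, and with relative log expression factors both stood at 0.19 and no longer passed (adjusted p = 0.15 and 0.12). RPL5 (0.24), RPSA (0.24) and RPLP0 (0.19) likewise lost their calls, at 0.05, 0.05 and 0.00. RPS6, higher by 0.16 with adjusted p = 0.042 on the deposited values, turned to -0.03 with adjusted p = 0.75. RPL27, a 60S protein, was lower by -0.36 with adjusted p = 0.046. It held 690, 999 and 1131 FPKM in parental and 428, 772 and 907 FPKM in parental-DTP cells, and without library 5 of the latter the value was -0.21 with adjusted p = 0.16.

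The DTP state was compared in the chemoresistant line as well. There 9 were higher and 2 lower in chemoresistant-DTP than in chemoresistant cells (limma, adjusted p under 0.05), 11 of 75, against 48.0% of all genes, 20.5% higher and 27.4% lower. The medians were 0.02 and -0.02, and 80% of the members lay between -0.13 and 0.23. Groups did not overlap for 5 members, RPL5, RPL35, RPL23, RPL7L1 and RPL26, against 27.8% of all genes. Library 2 of the chemoresistant-DTP group bore on the counts. Without it 6 members were higher and 14 lower, with a median of -0.06. Without library 3 of the chemoresistant group 5 were higher.

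RPL24, RPL26, RPL26L1, RPL6, RPL7L1 and RPS26 were higher, and RPL4 lower, in all 9 settings. RPL26L1 went from 55.8, 59.7 and 76.7 FPKM in chemoresistant to 74.6, 80.8 and 115 FPKM in chemoresistant-DTP cells (0.45 ± 0.0985, limma, adjusted p = 0.00054), overlapping through library 3 of the chemoresistant group. RPL7L1 rose from 16.3, 19.5 and 20.9 FPKM to 22.2, 24.3 and 25.5 FPKM with no overlap (0.32 ± 0.0544, adjusted p = 3.5e-05). RPL26 rose from 7.31, 7.60 and 8.62 to 9.11, 9.70 and 13.2 FPKM, also without overlap (0.34 ± 0.0779). With a chemoresistant median under 10 FPKM, RPL26 met the limit of the family only through other groups.

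RPS26 held 81.4, 89.0 and 91.3 FPKM in chemoresistant and 90.6, 100 and 147 FPKM in chemoresistant-DTP cells (0.25 ± 0.0775, adjusted p = 0.0088 by limma), where the lowest library of the latter lay below the highest of the former. Without library 2 of the chemoresistant-DTP group the value was 0.16 (adjusted p = 0.0053). RPL24, a late-joining 60S protein at the bridge between the subunits, was higher by 0.27 ± 0.0880. RPL4, which lines the peptide exit tunnel, fell by 0.16 from a median of 309 to 272 FPKM (adjusted p = 0.0056). RPL5 was higher by 0.18 with adjusted p = 0.028, and without library 2 of the chemoresistant-DTP group by 0.11 with adjusted p = 0.062.

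**Figure D4:**
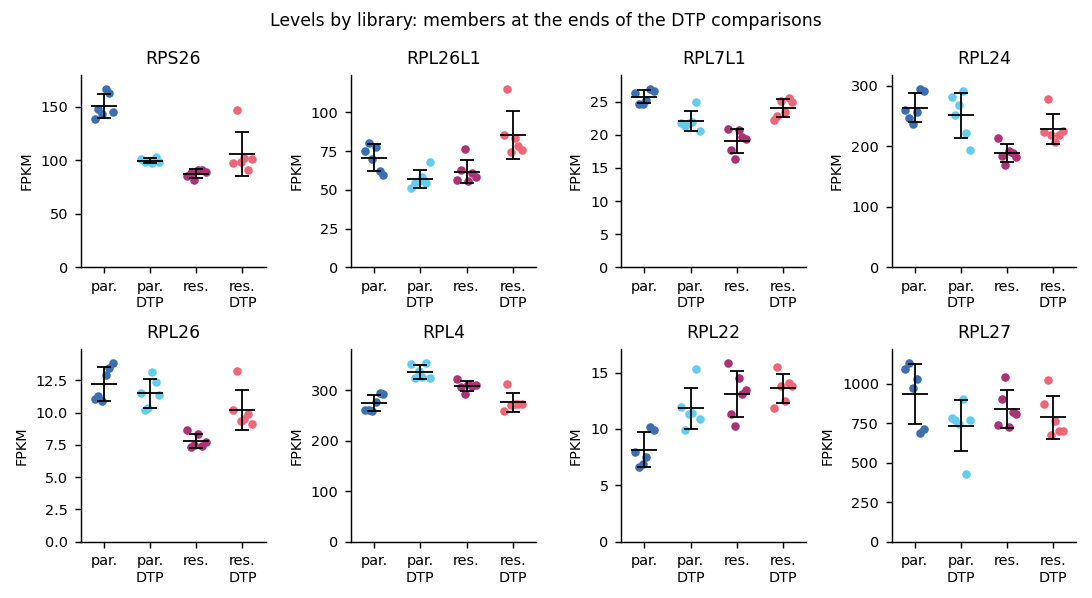
FPKM by library for 8 members at the ends of the DTP comparisons, in parental (par.), parental-DTP, chemoresistant (res.) and chemoresistant-DTP cells. Points are libraries, bars the mean ± SD (n = 6), axes start at 0. RPS26, RPL26L1 and RPL7L1 go down from parental to parental-DTP cells and up from chemoresistant to chemoresistant-DTP cells.

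Whether the lines differed in their DTP change was then tested as an interaction, chemoresistant minus parental. It uses all 4 groups, and each DTP comparison also shares its libraries with the comparisons of the lines, so these results are not independent of each other. A positive value means that a gene went further up, or less far down, with the DTP state in the chemoresistant line. Of the members 5 were positive and 9 negative (limma, adjusted p under 0.05), 14 of 75, against 63.8% of all genes, 20.5% positive and 43.4% negative. The medians were -0.06 and -0.17. With relative log expression factors 14 were positive and 1 negative, and without library 2 of the chemoresistant-DTP group 5 were positive and 25 negative on the deposited values.

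The 5 positive members held in all 9 settings. They were RPS26 at 0.84 ± 0.110 (limma, adjusted p = 3.9e-07), RPL26L1 at 0.76 ± 0.139 (adjusted p = 4.5e-05), RPL7L1 at 0.54 ± 0.0770 (adjusted p = 1.7e-06), RPL26 at 0.42 ± 0.110 and RPL24 at 0.35 ± 0.124. The first 3 fell with the DTP state in parental cells and rose with it in chemoresistant cells. RPL26 met the limit of the family only through the groups where it was higher. Of the negative members only RPL4, at -0.46 ± 0.0653, held in all of them. It went from a median of 269 to 332 FPKM in parental and from 309 to 272 FPKM in chemoresistant cells. RPL22 (-0.43) and RPS14 (-0.41), a 40S protein at the platform, did not pass under relative log expression scaling, with adjusted p = 0.14 and 0.30.

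The start of the gene was set beside these changes. The 44 members with a pyrimidine run at the start had medians of 0.10 in the parental DTP comparison and 0.01 in the chemoresistant one, and the 17 with an entry and no run had 0.04 and 0.07. In the parental DTP comparison the 4 members called lower on the deposited values were all among the 17, and 5 of these 17 were called higher. That split depended on the scaling. With relative log expression factors RPL26, which has a run, was also lower (-0.26, limma, adjusted p = 0.0091). RPL27, among the 4, lost its call with library totals without the members (limma, adjusted p = 0.054). In the chemoresistant DTP comparison the 17 held 4 of the 9 calls higher and both calls lower. Between the lines before the DTP state the medians were 0.23 with and 0.13 without a run. The spread within each set was far wider than these differences, from -0.59 to 0.34 for the 17 in the parental DTP comparison.

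Other genes of ribosome production and translation were read from lists, to place the family. These lists were chosen in the same way as the members. The nucleolar assembly factors, which process ribosomal RNA and build the subunits, are the largest of these lists. Of all tested genes 45.8% were higher and 19.7% lower in the parental DTP comparison, 20.5% and 27.4% in the chemoresistant one, and 48.2% and 29.4% in chemoresistant against parental cells, and the counts of each list stand beside these shares. In parental-DTP cells 47 of 76 were lower and 2 higher with a median of -0.30, and in chemoresistant-DTP cells 60 were higher and 3 lower with a median of 0.40, both against the cells of the same line. In chemoresistant against parental cells 66 were lower and 1 higher with a median of -0.80, where the members had 0.26. In chemoresistant-DTP against parental-DTP cells 20 were higher and 18 lower with a median of -0.02, where the members had 0.19. Of all tested genes 29.5% were higher and 32.3% lower there, also with a median of -0.02. NCL, the nucleolar protein nucleolin, held a mean of 269 ± 7.04 FPKM (SD, n = 6) in parental, 128 ± 10.4 in parental-DTP, 87.9 ± 3.69 in chemoresistant and 170 ± 2.23 in chemoresistant-DTP cells.

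RRP12, an export factor for both subunits, had means of 20.4, 11.7, 8.42 and 21.7 FPKM in the same order, and TCOF1, a factor for ribosomal RNA transcription, 54.9, 27.8, 22.7 and 41.9 FPKM. By their medians RPS26 (147, 99.2, 89.0 and 100 FPKM) and RPL7L1 (25.8, 21.7, 19.5 and 24.3 FPKM) had the same order of groups as these factors within each line. Under relative log expression and TMM scaling the assembly factors kept the sign of their median in these comparisons, at -0.47 and -0.46, 0.42 and 0.41, and -0.98 and -0.95.

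Of 75 mitochondrial ribosomal protein genes 32 were lower and 10 higher in parental-DTP cells, 34 higher and 4 lower in chemoresistant-DTP cells, and 47 lower and 10 higher in chemoresistant against parental cells (medians of -0.13, 0.16 and -0.29). Of 29 translation initiation factors 13 were lower and 4 higher, 16 higher and 6 lower, and 18 lower and 6 higher in the same comparisons. RNA polymerase I and its factors had 8 of 18 lower and 5 higher, 6 higher and 1 lower, and 14 lower and 1 higher. Genes for elongation factors and other TOP mRNAs had 11 of 22 higher and 3 lower, 7 higher and 3 lower, and 8 lower and 7 higher. Their median in the parental DTP comparison turned from 0.16 to -0.03 under relative log expression scaling.

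Of 23 genes that control mTORC1 and TOP mRNAs 9 were higher and 3 lower in parental-DTP cells, 7 higher and 2 lower in chemoresistant-DTP cells, and 10 lower and 8 higher in chemoresistant against parental cells. SESN2, an inhibitor of mTORC1 induced by stress, was higher by 2.48 in parental-DTP cells. RPL36AL, a retrogene copy of RPL36A that the symbol rule left out, had means of 158, 76.2, 91.1 and 103 FPKM, a change of -1.05 ± 0.0771 in the parental DTP comparison and an interaction of 1.20 ± 0.109.

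**Figure D5:**
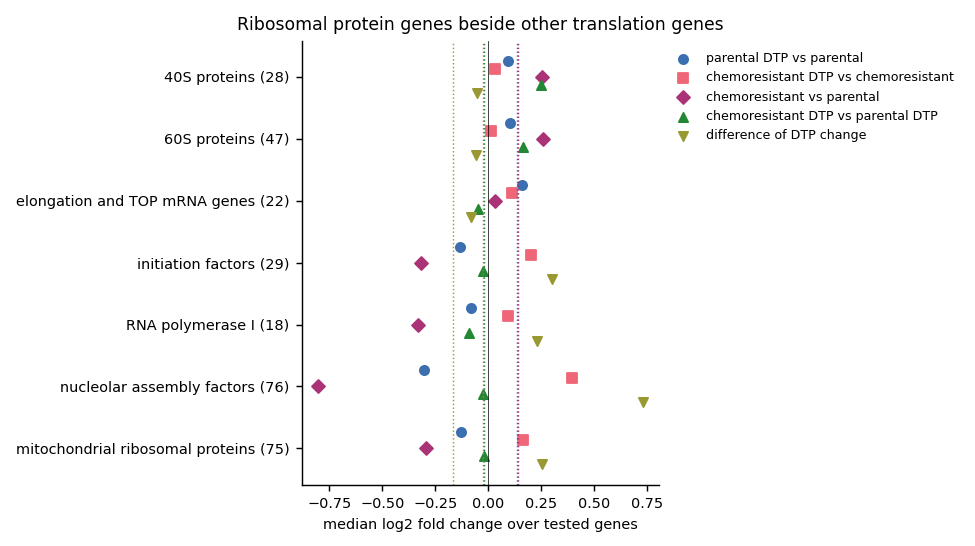
Median log2 fold change over the tested genes of each list (number in brackets) in the 5 comparisons, with dotted lines at the median of all tested genes in the same colours. Nucleolar assembly factors lie at -0.80 for chemoresistant against parental cells, while 40S and 60S proteins lie at 0.25 and 0.26.

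RNA species that report on library make-up also differed between groups. The summed level of 7 nuclear-retained RNAs was 28.3 to 45.2 FPKM in parental and 56.3 to 66.6 FPKM in parental-DTP libraries, then 34.4 to 54.3 FPKM in chemoresistant and 43.5 to 60.7 FPKM in chemoresistant-DTP libraries. Replication-dependent histone mRNAs, which mostly lack a poly(A) tail, summed to 75.1 to 86.2 FPKM in parental, 122 to 127 in parental-DTP, 212 to 240 in chemoresistant and 210 to 260 FPKM in chemoresistant-DTP libraries. Their part in the results for the ribosomal protein genes was not tested.

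Gene length and GC content were then set beside the changes. The members had a median exon length of 3228 bases against 4409 over all tested genes, and a median GC content of 48.1% against 48.7%. Within the members the log2 fold change followed GC content, with Spearman's rho of -0.26 and -0.45 in the parental and chemoresistant DTP comparisons and 0.29 and 0.31 between the lines before and in the DTP state. Over all genes the values were -0.13, -0.27, 0.09 and 0.08. With length the members gave 0.06, 0.02, -0.13 and -0.18. All are across genes, which are not independent replicates.

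Set against tested genes of the same decile of GC content, the members had median differences of -0.02, 0.06, 0.11 and 0.22 in those 4 comparisons, and against genes of the same decile of length -0.03, 0.05, 0.08 and 0.19. In chemoresistant-DTP against parental-DTP cells 59 of 75 members lay above the median of their GC decile. Regressing each library's deviations on GC content and length left 5 members higher and 8 lower in the parental DTP comparison, 12 and 1 in the chemoresistant one, 31 and 17 between the lines before the DTP state and 36 and 12 in it. The regression had an intercept, so it also centred each library's deviations over the tested genes on 0, which rescales the libraries. These counts therefore do not separate GC content and length from scaling. After that correction RPL37 had 1.25 and RPS25 -1.65 in chemoresistant against parental cells. RPS26 had -0.77, RPL26L1 -0.53 and RPL7L1 -0.36 in the parental DTP comparison.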

How the data were processed

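RNA-seq values of 24 libraries were used, 6 per group, with groups from the labels' phenotype entries and replicate numbers from the titles. The authors deposited FPKM (reads scaled by gene length and library total) for 61251 genes in 1 table, per the file headers. The genome build is GRCh38, per the submitters' processing notes, whereas aligner, counter, annotation release and strandedness were not given in the sources used here. Cells were lysed in TRIzol, per the labels' protocols. With GENCODE 29 exon lengths, 41101 of 41101 genes above 0 (100.0%) gave whole reads within 0.02 reads, which set depth at 14947379 to 37989457 reads. A count of 0 allows 3 reads, or 0.079 to 0.201 CPM, for counting error only.

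The test was limma 3.58.1 (R 4.3.3) with a mean-variance trend on log2(FPKM + 1), with 4 group means over all 24 libraries, two-sided, Benjamini-Hochberg adjusted over 13729 genes whose mean reached 1 FPKM in any group, at a threshold of 0.05. Fold changes are on that scale, which understates changes of low genes. The script was tested on simulated data. The comparisons share groups: parental, parental-DTP, chemoresistant and chemoresistant-DTP libraries each enter more than 1, so no overlap between comparisons is given. The members and lists were chosen with earlier results of these data known. Members were named for a preset role (P stalk, RPSA, RPS6, RPL5, RPL11, RPS19, RPS26, RPS27A, L paralogs with their parents), for the 3 largest and 3 smallest changes per comparison, and for up to 4 calls in the rarer direction. Other members named were chosen after their values were seen, and values of a few single genes are not reported here. Alternatives were other scalings, pseudocounts, filters, libraries left out, a replicate block, and a regression on GC content and length (splines with 4 degrees of freedom). That regression had an intercept, and so also rescaled each library. Neighbours came from GENCODE 29 and start sequences from RefSeq (GRCh38.p14).

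Titles number the replicates alike in all groups. Same-numbered libraries did not deviate together, so the number was not used as a pairing.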

Additional observations from a re-analysis of the deposited data

Results flagged for a closer look

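In 23 of 72 groups of 6 values examined, 1 library stood farther from the rest than 95% of such groups would by chance. Chance alone marks about 1 in 20 groups if they are independent. The 72 groups were not, because the same 24 libraries recurred for the members' share and for each member examined. The marks fell only on the few libraries named in this section, so their number does not count separate events. In parental-DTP cells library 6 was the highest for the members' share of the summed FPKM (8.34%), RPLP1 (397 FPKM), RPS21 (638 FPKM), RPS28 (141 FPKM) and RPS3 (390 FPKM). Library 5 was the highest for RPL22 (15.3 FPKM), RPL7L1 (24.9 FPKM) and RPS27 (477 FPKM) and the lowest for RPL27 (428 FPKM). In chemoresistant cells library 3 was the highest for RPL26L1 (76.7 FPKM).

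In chemoresistant-DTP cells library 2 was the highest in every such case. It held 10.7% of the summed FPKM in the members, and the levels were 148 FPKM for RPL15, 13.2 FPKM for RPL26, 115 FPKM for RPL26L1 and 718 FPKM for RPL37. They were 313 FPKM for RPL4, 671 FPKM for RPLP1, 333 FPKM for RPS14 and 1188 FPKM for RPS21. RPS26 had 147 FPKM, RPS28 242 FPKM, RPS3 276 FPKM and RPS6 1094 FPKM there.

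The DTP change differed between the lines for 14 members by the interaction (limma, adjusted p under 0.05). It was positive for RPS26 (0.84), RPL26L1 (0.76), RPL7L1 (0.54), RPL26 (0.42) and RPL24 (0.35). Among those reported here it was negative for RPL4 (-0.46), RPL22 (-0.43), RPS14 (-0.41), RPL15 (-0.38), RPS18 (-0.36), RPL29 (-0.34), RPL13A (-0.32) and RPSA (-0.24).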

How the results depend on the processing

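Counts are members higher and lower. For parental-DTP against parental cells, 19 and 4 on the deposited values, they were 1 and 10 with relative log expression factors, 2 and 9 with TMM, 5 and 8 with the GC and length correction, 4 and 8 with that correction and the replicate block, and 2 and 10 with voom on recovered reads. For chemoresistant-DTP against chemoresistant cells, 9 and 2, the 5 settings in that order gave 1 lower each, with 11 to 12 higher. For chemoresistant against parental cells, 41 and 11, the GC and length correction gave 17 lower with and without the block. For the difference of the DTP change, 5 and 9, they gave 14 and 1, 12 and 1, 12 and 1, 13 and 2, and 13 and 1. Leaving out parental-DTP libraries 5 and 6 gave 9 and 3 in the parental DTP comparison and 46 higher between the DTP states.

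With chemoresistant-DTP library 2 left out (chosen after seeing the data, as was voom), relative log expression factors gave 3 and 21, 8 and 8, 33 and 20, 35 and 13, and 13 and 6 in the order of the report's 5 comparisons with both DTP comparisons first. The GC and length correction gave 7 and 15, 8 and 6, 35 and 20, 33 and 15, and 12 and 9. Leaving out single libraries gave 11 to 33 higher and 3 to 5 lower for the parental DTP comparison, 5 to 11 and 2 to 14 for the chemoresistant one, 38 to 46 and 11 to 13 between the lines before the DTP state, 33 to 40 and 8 to 12 in it, and 5 to 5 and 7 to 25 for the difference. The extremes of 33, 14 and 25 came without chemoresistant-DTP library 2, that of 11 without parental-DTP library 5, and that of 5 without chemoresistant library 3.

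RPS6 in the parental DTP comparison turned from 0.16 to -0.0320 with relative log expression factors, -0.0162 with TMM, -0.0155 with voom, and -0.0348 with the GC and length correction, with or without the block. Leaving out chemoresistant-DTP library 2 gave the same -0.0320 and -0.0348. RPL5 in the chemoresistant DTP comparison turned from 0.18 to -0.00731 with that correction and that library left out. The cause was not tested.

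The replicate block gave 17 and 4, 7 and 2, 41 and 11, 37 and 8, and 5 and 9. Same-numbered libraries correlated at a median r of 0.03 over 36 pairs (-0.38 to 0.40), and 8 of 72 best matches shared a number. Scaling moved the split of calls over all genes: in the parental DTP comparison 6283 higher and 2711 lower became 4477 and 4413 with relative log expression factors, and in chemoresistant against parental cells 6614 and 4031 became 5369 and 5288. For the difference of the DTP change 2812 and 5952 became 4252 and 4565. Without a filter 11844, 8235, 16484, 11517 and 12192 genes passed. A planned edgeR test was not run, since the deposited values are FPKM. With at least 369 reads per library, depth did not limit the members.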
